A study of Homo sapiens with 26 samples.

Results

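The genes of cholesterol and fatty acid synthesis were followed in small cell lung cancer cell lines by sequencing of polyA-selected RNA. They are 32 genes listed by symbol, of 19128 genes in the knockout tables and 19117 in the parental table, and 32 of 32 were found in all 5 tables. The list was made by pathway and its rule used no measured value, though it was chosen with earlier results of these data known. It holds 7 enzymes from acetyl-CoA to farnesyl diphosphate, 11 enzymes from squalene formation to cholesterol, 5 regulators, 2 transport genes and 7 genes of fatty acid synthesis. In the knockout experiment, sgPOU2F3 cells carried 1 of 2 guide RNAs against POU2F3, delivered by lentivirus, and sgNeg cells carried 1 control guide. RNA was taken on day 4 from infection in NCI-H211 and NCI-H1048 and on day 5 in NCI-H526 and COR-L311. These 4 lines are known to express POU2F3, a transcription factor of tuft cells (chemosensory cells of epithelia). The parental set held 1 uninfected library each of those 4 lines and of 10 other small cell lung cancer lines. The authors combined both guides into 1 column, so each line has 1 value per arm and no spread between guides. The labels describe infected cultures, name no clone and give no share of edited cells, and in such bulk samples fewer cells of a kind and less RNA per cell cannot be told apart. Per the labels' growth protocol, NCI-H1048 was grown in HITES medium, a hormone-supplemented medium, and NCI-H128 in RPMI with 20% serum. The other lines had RPMI with 10% serum or HITES, and which of these each line had is not given in the sources used here.

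Cells make cholesterol from acetyl-CoA through mevalonate, farnesyl diphosphate and squalene. The transcription factors SREBF1 and SREBF2 drive these enzymes and those of fatty acid synthesis. SCAP escorts the factors out of the endoplasmic reticulum when membrane sterol is low, and INSIG1 and INSIG2 hold them back when it is high. INSIG1 is itself a target of these factors, and serum lipoprotein supplies sterol that lowers their activity.

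SREBP factors bind sterol regulatory elements, usually beside a box for the factor NF-Y, and the POU2 family binds the octamer. Letters for these 3 motifs were looked for on both strands of promoter windows, from 250 bases before to 50 bases after each start (RefSeq, GRCh38.p14). A window was found for 28 of the 32 members. TCACNCCAC (1 spelling of the sterol regulatory element) was in 1 member, SREBF2, and in 1.13% of all 35116 windows. ATGCAAAT (the octamer) was also in SREBF2 alone among the members, and in 1.77% of all windows. CCAAT (the NF-Y box) was in 20 of 28 members and 24 of their 38 windows, against 34.6% of all windows. The stretches below are those of SREBF2, which holds all 3 motifs, and of 5 members described below, chosen after their values were seen. SREBF1, whose mean ratio between arms lay farther from 0 than those of LSS, HMGCS1 and MSMO1, has a window with none of the 3 motifs and is not shown. Each reads 5′ to 3′ on the strand of the gene, with the motif letters in capitals (ATTGG is the NF-Y box on the other strand). A match is a description of letters, not a bound site. Other spellings of the motifs were not looked for, so a window without a match may still hold such an element.

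SREBF2, chr22:41832928-41833018, plus strand: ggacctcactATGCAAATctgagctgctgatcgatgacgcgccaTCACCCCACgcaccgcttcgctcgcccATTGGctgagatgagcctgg
INSIG1, chr7:155297698-155297727, plus strand: ccggcctcccATTGGttgcggccgcctcac
SCD, chr10:100346994-100347066, plus strand: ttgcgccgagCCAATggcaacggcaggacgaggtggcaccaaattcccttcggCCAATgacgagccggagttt
LSS, chr21:46228905-46228934, minus strand: cggcgctctgATTGGttgcgtgggcgtcgg
HMGCS1, chr5:43313493-43313577, minus strand: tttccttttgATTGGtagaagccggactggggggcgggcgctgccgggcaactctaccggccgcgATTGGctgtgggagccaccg
MSMO1, chr4:165327474-165327654, plus strand: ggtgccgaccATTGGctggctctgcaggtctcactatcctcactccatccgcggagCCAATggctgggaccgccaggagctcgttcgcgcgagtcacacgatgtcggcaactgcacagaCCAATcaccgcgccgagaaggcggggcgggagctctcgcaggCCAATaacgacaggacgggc

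In SREBF2 the octamer lay farthest from the start, then the sterol regulatory element and then the NF-Y box, and the 3 matches shared no letter. The SREBF2 transcript itself differed little between arms, as given below. The stretches of SCD and HMGCS1 each held 2 NF-Y boxes, and that of MSMO1 held 4.

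The targeted gene was read first. POU2F3 had 21.3 FPKM (fragments per kilobase of transcript and per M mapped fragments, M for mega) in sgPOU2F3 and 307 FPKM in sgNeg cells of NCI-H211, which is 6.95% of the sgNeg value. It had 60.8 FPKM in sgPOU2F3 and 198 FPKM in sgNeg cells of NCI-H1048 (30.7%), and 204 FPKM in sgPOU2F3 and 501 FPKM in sgNeg cells of NCI-H526 (40.7%). In COR-L311 it had 218 FPKM in sgPOU2F3 and 272 FPKM in sgNeg cells, or 80.4%, and an edit of the coding sequence need not lower the RNA. Of the 8 knockout columns, 8 were closest to their own line among the parental libraries. Estimated depth was 18.5 to 30.2 M fragments for sgPOU2F3, 9.4 to 15.4 M for sgNeg and 10.0 to 32.1 M for parental columns. Summed FPKM of 6 tuft cell markers, POU2F3 among them, was 114, 90.0, 589 and 656 in sgPOU2F3 cells of NCI-H211, NCI-H1048, NCI-H526 and COR-L311. In sgNeg cells of these lines it was 1667, 349, 1198 and 1316. The same sum was 366 to 1321 in the 4 parental knockout lines and 0.474 to 12.9 in the 10 other lines. Summed FPKM of 6 neuroendocrine markers was 17.3 in sgPOU2F3 and 63.8 in sgNeg cells of NCI-H211, and 33.5 in sgPOU2F3 and 51.3 in sgNeg cells of NCI-H1048. In NCI-H526 this sum was 366 in sgPOU2F3 and 290.0 in sgNeg cells, and in COR-L311 616 in sgPOU2F3 and 248 in sgNeg cells. This sum was thus lower with sgPOU2F3 in both day 4 lines and higher in both day 5 lines, and its part in the members' values was not tested. NCAM1 had the highest single value of the 6 genes, at 358 FPKM in sgPOU2F3 and 113 FPKM in sgNeg columns. The sum thus leans on 1 gene, and the 6 genes are not given here line by line. Summed markers of blood cells (4 genes) and endothelium (3 genes) stayed at or below 4.39 FPKM in the knockout columns. The sum of 4 fibroblast markers reached 16.0 FPKM in NCI-H211 sgPOU2F3 and 8.05 FPKM in NCI-H211 sgNeg, and its part in the results was not tested.

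Most members were lower with sgPOU2F3 in NCI-H526 (31 of 31), COR-L311 (24 of 31) and NCI-H211 (22 of 31). In NCI-H1048 11 of 31 were lower, and none reached the size used here. Of all 12387 genes tested, 6612, 6396, 6612 and 6241 were lower in these 4 lines as listed. The size is a log2 ratio of 0.5, taken on log2(FPKM + 1), and it carries no test because each line has 1 value per arm. A total of 31 members passed the filter on low values (1 FPKM or more in 4 or more of the 8 columns). ABCA1, the exporter that loads cholesterol onto lipoprotein, did not pass it, at 0.0194 to 1.96 FPKM in sgPOU2F3 and 0.00785 to 1.17 FPKM in sgNeg columns. In NCI-H526 16 members were at or below -0.5 (51.6%), against 3.70% of all 12387 genes tested. In COR-L311 11 members were at or below -0.5 (35.5%), against 13.2% of all genes. In NCI-H211 there were 8 (25.8%), against 14.8%. In NCI-H1048 there were 0, against 3.55%, and SREBF1 lay just under the size in the other direction, at 0.50. The share of members was above that of all genes in 3 lines, by the widest margin in NCI-H526. In the other direction, 2 members reached 0.5 in COR-L311, TM7SF2 and STARD4 (6.45%, against 11.5% of all genes). None did so in NCI-H211, NCI-H1048 or NCI-H526, where the shares of all genes were 12.1%, 3.57% and 5.13%. For the members the median log2 ratio by line was -0.16 (NCI-H211), 0.07 (NCI-H1048), -0.52 (NCI-H526) and -0.31 (COR-L311), and for all genes -0.03, 0.00, -0.02 and -0.02.

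**Figure D1:**
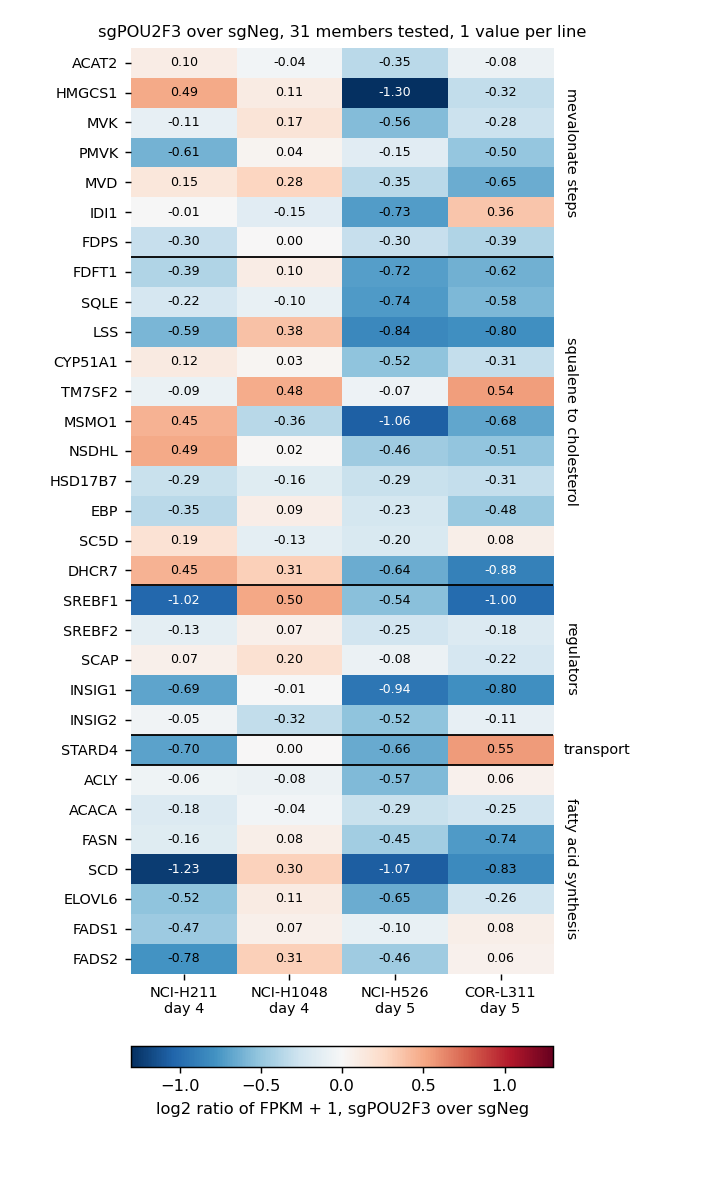
Log2 ratio of FPKM + 1, sgPOU2F3 over sgNeg, for the 31 members tested (rows, grouped by role) in the 4 lines (columns, with the harvest day), 1 value per line. The NCI-H526 column is below 0 for 31 of 31 members, while the NCI-H1048 column ranges from -0.36 to 0.50.

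**Figure D2:**
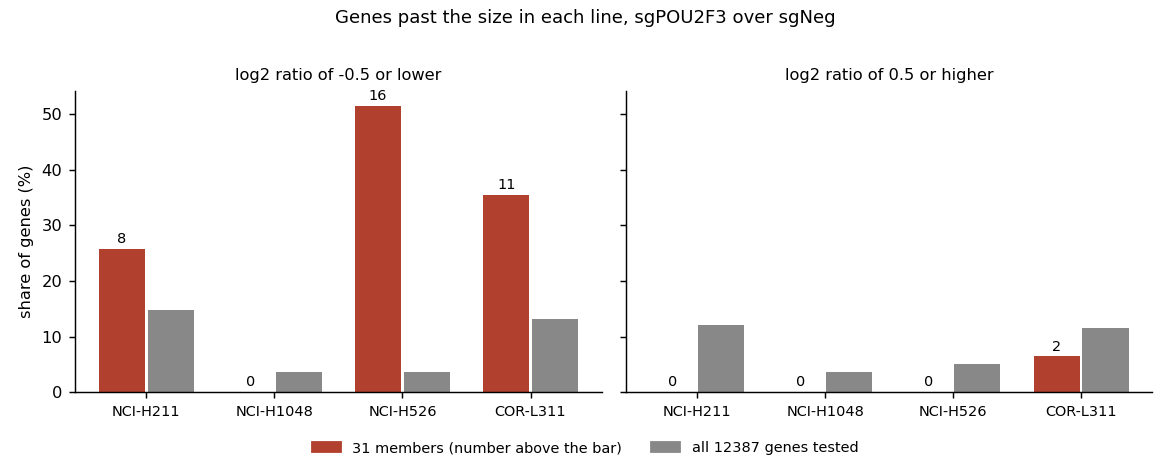
Share of the 31 members (left bar of each pair, with the number of members above it) and of all 12387 genes tested (right bar) with a log2 ratio of -0.5 or lower (left panel) and 0.5 or higher (right panel) in each line. The members' bar exceeds the bar of all genes for lower values in NCI-H211, NCI-H526 and COR-L311.

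Across the 4 lines, no member passed the limma test of sgPOU2F3 against sgNeg at an adjusted p of 0.05. Of all genes, 2 passed higher (0.0161%) and 0 passed lower (0%), and leaving out any 1 line left 0 or 1 higher. The members' adjusted p ranged from 0.39 to 0.99. The mean ratio was below 0 for 30 of 31 members, against 6596 of 12387 genes, and its median was -0.22 over the members and -0.02 over all genes. An unadjusted p under 0.05 was found for 1456 genes, of which 877 were lower, and for 5 members, all lower: INSIG1, SQLE, SCD, FDFT1 and HSD17B7. In all 4 lines, 6 members were below 0 (19.4%, against 12.9% of all genes): FDPS, SQLE, HSD17B7, INSIG1, INSIG2 and ACACA. The NCI-H1048 values of FDPS and INSIG1 lay within 0.01 of 0. When columns were centred on their median, 4 of 31 members remained below 0 in every line. That is 12.9%, no more than the share of all genes before centring, and the share of all genes after centring is not given here. Without NCI-H1048, 16 members were below 0 in the other 3 lines (51.6%, against 21.1% of all genes). No member was above 0 in all 4 lines, against 9.81% of all genes.

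The mevalonate enzymes showed 1 steep difference and otherwise modest ones. HMGCS1, which makes hydroxymethylglutaryl-CoA, had 53.4 FPKM in sgPOU2F3 and 133 FPKM in sgNeg cells of NCI-H526, and 38.5 FPKM in sgPOU2F3 and 48.2 FPKM in sgNeg cells of COR-L311. It had 61.9 FPKM in sgPOU2F3 and 43.9 FPKM in sgNeg cells of NCI-H211, and 82.1 FPKM in sgPOU2F3 and 76.2 FPKM in sgNeg cells of NCI-H1048. HMGCS1 was thus lower in both day 5 lines and higher in both day 4 lines, and its mean ratio was -0.26 ± 0.77 (SD, n = 4 lines). MVD, the decarboxylase that yields isopentenyl diphosphate, had the same signs, with 27.1, 37.4, 18.5 and 17.5 FPKM in sgPOU2F3 cells of NCI-H211, NCI-H1048, NCI-H526 and COR-L311. Its sgNeg values in those lines were 24.3, 30.6, 23.9 and 27.9 FPKM. FDPS, which makes farnesyl diphosphate, had log2 ratios of -0.30 in NCI-H211, 0.00 in NCI-H1048, -0.30 in NCI-H526 and -0.39 in COR-L311. The ratios of the kinases MVK and PMVK lay between -0.61 and 0.17. IDI1, the isomerase that follows MVD, ranged from -0.73 in NCI-H526 to 0.36 in COR-L311, and ACAT2, the thiolase at the head of the path, from -0.35 to 0.10. The median of the 7 genes was -0.35 in NCI-H526, -0.32 in COR-L311, -0.01 in NCI-H211 and 0.04 in NCI-H1048.

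Of the 11 enzymes from squalene formation to cholesterol, 11 were lower in NCI-H526 and 9 in COR-L311, against 6 in NCI-H211 and 4 in NCI-H1048. FDFT1, squalene synthase, had 173, 149.8, 102 and 158 FPKM in sgPOU2F3 cells of NCI-H211, NCI-H1048, NCI-H526 and COR-L311, against 227, 139.9, 168 and 243 FPKM in sgNeg cells. It was lower in 3 lines and slightly higher in NCI-H1048, with a mean ratio of -0.41 ± 0.36 (SD, n = 4 lines; limma adjusted p = 0.41). SQLE, squalene epoxidase, had 225, 54.4, 65.8 and 37.1 FPKM in sgPOU2F3 cells of the same lines, against 263, 58.2, 110.3 and 56.0 FPKM in sgNeg cells. It was lower in 4 of 4 lines, by -0.41 ± 0.30 (SD, n = 4 lines; limma adjusted p = 0.40). LSS, lanosterol synthase, had 28.8, 69.2, 24.9 and 28.8 FPKM in sgPOU2F3 cells, against 43.9, 53.1, 45.4 and 50.8 FPKM in sgNeg cells. Its ratio was 0.38 in NCI-H1048 and between -0.84 and -0.59 in the other 3 lines.

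MSMO1, a methylsterol oxidase, had 28.6, 24.9, 55.3 and 25.1 FPKM in sgPOU2F3 cells of NCI-H211, NCI-H1048, NCI-H526 and COR-L311, against 20.6, 32.1, 116 and 40.8 FPKM in sgNeg cells. It was lower in 3 lines and higher in NCI-H211, where its ratio was 0.45. NSDHL, a dehydrogenase of the same demethylation, had 48.2, 24.6, 20.6 and 17.9 FPKM in sgPOU2F3 cells, against 34.0, 24.3, 28.7 and 25.8 FPKM in sgNeg cells. HSD17B7, the reductase that completes each round, had 4.57, 21.0, 10.4 and 10.9 FPKM in sgPOU2F3 cells, against 5.82, 23.6, 12.9 and 13.8 FPKM in sgNeg cells. HSD17B7 had the closest agreement between lines of the 5 members named for their p, at -0.26 ± 0.07 (SD, n = 4 lines; limma adjusted p = 0.42). DHCR7, which makes cholesterol from its immediate precursor, had 130.2, 77.4, 56.2 and 55.5 FPKM in sgPOU2F3 cells, against 94.9, 62.2, 87.8 and 103 FPKM in sgNeg cells. DHCR7 was higher in NCI-H211 and NCI-H1048 (0.45 and 0.31) and lower in NCI-H526 and COR-L311 (-0.64 and -0.88). TM7SF2, a sterol reductase, was the member with a mean above 0, at 0.22 ± 0.34 (SD, n = 4 lines). The demethylase CYP51A1 ranged from -0.52 to 0.12, the isomerase EBP from -0.48 to 0.09, and the desaturase SC5D from -0.20 to 0.19.

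The regulators separated into INSIG1 and SREBF1, which differed widely, and the others. INSIG1 had 18.0, 79.5, 80.0 and 39.1 FPKM in sgPOU2F3 cells of NCI-H211, NCI-H1048, NCI-H526 and COR-L311, against 29.5, 80.2, 154 and 68.6 FPKM in sgNeg cells. It had the smallest p of the members, with a mean ratio of -0.61 ± 0.41 (SD, n = 4 lines; SE 0.16; unadjusted p = 0.0088, limma adjusted p = 0.39). Its ratio lay between -0.94 and -0.69 in 3 lines and was -0.01 in NCI-H1048. SREBF1 had 10.2, 52.4, 25.3 and 23.4 FPKM in sgPOU2F3 cells, against 21.8, 36.8, 37.1 and 47.8 FPKM in sgNeg cells. Its ratio lay between -1.02 and -0.54 in NCI-H211, NCI-H526 and COR-L311, and was 0.50 in NCI-H1048. SREBF2 had 36.9, 111, 97.3 and 96.7 FPKM in sgPOU2F3 cells, against 40.5, 105, 116 and 110.0 FPKM in sgNeg cells, so that its ratio stayed between -0.25 and 0.07. SCAP had 21.3, 32.4, 24.9 and 28.8 FPKM in sgPOU2F3 cells, against 20.2, 28.1, 26.3 and 33.6 FPKM in sgNeg cells. INSIG2 had 24.0, 11.1, 20.7 and 11.5 FPKM in sgPOU2F3 cells, against 24.8, 14.1, 30.2 and 12.5 FPKM in sgNeg cells. INSIG2 was lower in 4 of 4 lines, by -0.05 to -0.52, and SCAP ranged from -0.22 to 0.20. STARD4, a carrier that moves sterol between membranes, had ratios of -0.70 in NCI-H211, 0.00 in NCI-H1048, -0.66 in NCI-H526 and 0.55 in COR-L311.

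**Figure D3:**
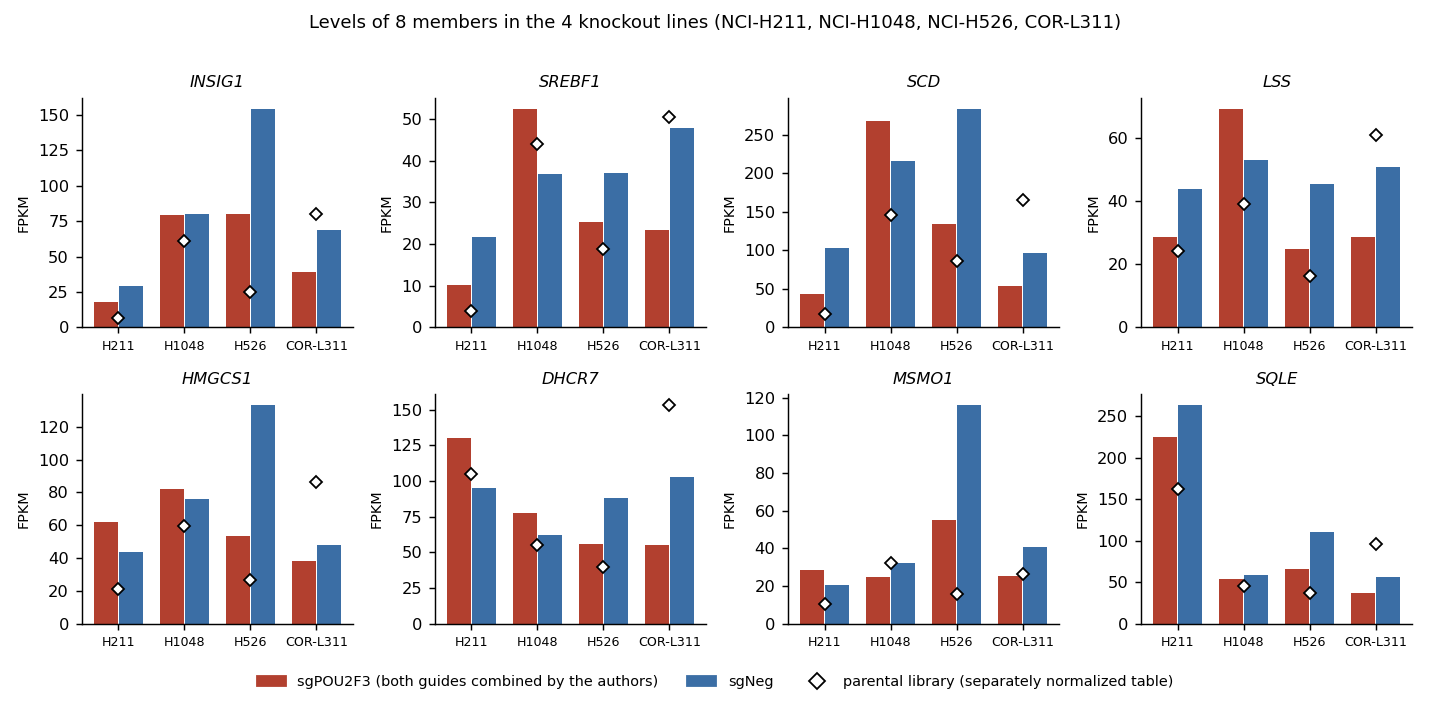
FPKM of 8 members in sgPOU2F3 (left bar) and sgNeg (right bar) columns of each line, with the parental library of the line as an open diamond, on a scale that starts at 0. INSIG1, SREBF1, SCD and LSS are lower in sgPOU2F3 in NCI-H211, NCI-H526 and COR-L311, and the NCI-H526 diamonds lie below both bars.

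Of the fatty acid genes, SCD differed most. SCD, the desaturase that makes oleate, had 43.3, 267, 134 and 53.7 FPKM in sgPOU2F3 cells of NCI-H211, NCI-H1048, NCI-H526 and COR-L311, against 103, 216, 283 and 96.3 FPKM in sgNeg cells. It had the mean ratio farthest from 0 among the members, at -0.71 ± 0.69 (SD, n = 4 lines; limma adjusted p = 0.41), with -1.23 in NCI-H211 and 0.30 in NCI-H1048. FASN, fatty acid synthase, had 84.3, 83.8, 132 and 66.0 FPKM in sgPOU2F3 cells, against 94.2, 79.2, 181 and 111 FPKM in sgNeg cells. It was lower in 3 lines, most in COR-L311 at -0.74. All 7 fatty acid genes were lower in NCI-H211, with a median of -0.47, and in NCI-H526, with a median of -0.46. In COR-L311 4 of 7 were lower (median -0.25), and in NCI-H1048 2 of 7 were (median 0.08). In NCI-H211 this group stood apart from the 18 sterol path enzymes, whose median there was -0.05 with 10 lower and 8 higher. The same 18 enzymes had medians of 0.03 in NCI-H1048, -0.49 in NCI-H526 and -0.43 in COR-L311. ACACA, which makes malonyl-CoA, was lower in 4 of 4 lines by -0.04 to -0.29. ELOVL6, an elongase, ranged from -0.65 to 0.11, the citrate lyase ACLY from -0.57 to 0.06, and the polyunsaturated fatty acid desaturases FADS1 and FADS2 from -0.78 to 0.31.

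A group of 4 members, LSS, SREBF1, INSIG1 and SCD, was at or below -0.5 in each of NCI-H211, NCI-H526 and COR-L311. That is 12.9% of members, against 0.799% of all genes. The 3 lines were picked after the values were seen, so the count is a description. In NCI-H1048 the same 4 genes had ratios of 0.38, 0.50, -0.01 and 0.30. The labels place NCI-H1048 in HITES by name and do not give the medium of the other 3 lines one by one, so the part of growth medium was not tested.

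The sign of several sterol enzymes followed the harvest day. In both day 4 lines 6 members were higher, and in both day 5 lines the same 6 were lower: HMGCS1, MVD, CYP51A1, NSDHL, DHCR7 and SCAP. This was 19.4% of members, against 6.37% of all genes. Some of these ratios lay near 0: CYP51A1 at 0.03 and NSDHL at 0.02 in NCI-H1048, and SCAP at 0.07 in NCI-H211 and -0.08 in NCI-H526. The limma test of the day 5 lines minus the day 4 lines, on the 4 ratios, called no gene in either direction (0% of 12387 each), and 682 genes had an unadjusted p under 0.05. For 7 members that p was under 0.05, all lower in the day 5 lines: DHCR7, MVD, HMGCS1, NSDHL, MSMO1, FASN and SQLE. DHCR7 had a mean ratio of -0.76 in the day 5 lines and 0.38 in the day 4 lines, a difference of -1.14 with an SE of 0.21 (limma adjusted p = 0.62, n = 4 lines). HMGCS1 had -0.81 in the day 5 lines and 0.30 in the day 4 lines, a difference of -1.10 with an SE of 0.36 (limma adjusted p = 0.83, n = 4 lines). The difference of HMGCS1 was -0.61 without NCI-H526 and -1.60 without COR-L311, while that of DHCR7 stayed between -1.26 and -1.02 with any 1 line left out. The differences of MSMO1, NSDHL, MVD, FASN and SQLE were -0.92, -0.74, -0.72, -0.56 and -0.50. Without NCI-H211, MSMO1 came to -0.51. Without NCI-H1048, 3 members passed, MSMO1, DHCR7 and HMGCS1, while the count of all genes went to 294 higher and 302 lower with a lone day 4 line. Day and line differ together and cannot be told apart.

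Members were also set beside the parental library of the same line, a step added after the values were seen. The tables were normalized separately, so these levels are a description. In NCI-H526 the members' median lay 0.59 above the parental library in sgPOU2F3 and 1.10 above it in sgNeg, on the log2 scale, while the median of all genes was 0.07 in both arms. More than 2-fold above parental were 5 of 31 members in sgPOU2F3, against 3.50% of all genes, and 18 of 31 in sgNeg, against 2.67%. INSIG1 had 80.0 FPKM in sgPOU2F3, 154 FPKM in sgNeg and 24.8 FPKM in the parental library of that line. HMGCS1 there had 53.4 FPKM in sgPOU2F3, 133 FPKM in sgNeg and 26.6 FPKM in the parental library, and MSMO1 had 55.3 FPKM in sgPOU2F3, 116 FPKM in sgNeg and 15.9 FPKM in the parental library. For 28 of 31 members in NCI-H526, the sgNeg column was the highest, the sgPOU2F3 column next and the parental library the lowest, an order that 24.9% of all genes had. In this line, then, sgPOU2F3 cells were lower than the infected control and higher than uninfected cells.

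The other lines did not share 1 pattern. In NCI-H211 the members' median lay 0.55 above parental in sgPOU2F3 and 0.78 above in sgNeg, and in NCI-H1048 0.31 above in sgPOU2F3 and 0.28 above in sgNeg. In COR-L311 it lay below parental, by -0.58 in sgPOU2F3 and -0.22 in sgNeg. DHCR7 in COR-L311 had 55.5 FPKM in sgPOU2F3, 103 FPKM in sgNeg and 153 FPKM in the parental library, and HMGCS1 had 38.5 FPKM in sgPOU2F3, 48.2 FPKM in sgNeg and 86.2 FPKM in the parental library. With the parental library in place of sgNeg, the members' median ratio was therefore above 0 in NCI-H211 and NCI-H526, where it was below 0 against sgNeg. Infection, time in culture and table differ between these columns and cannot be told apart.

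**Figure D4:**
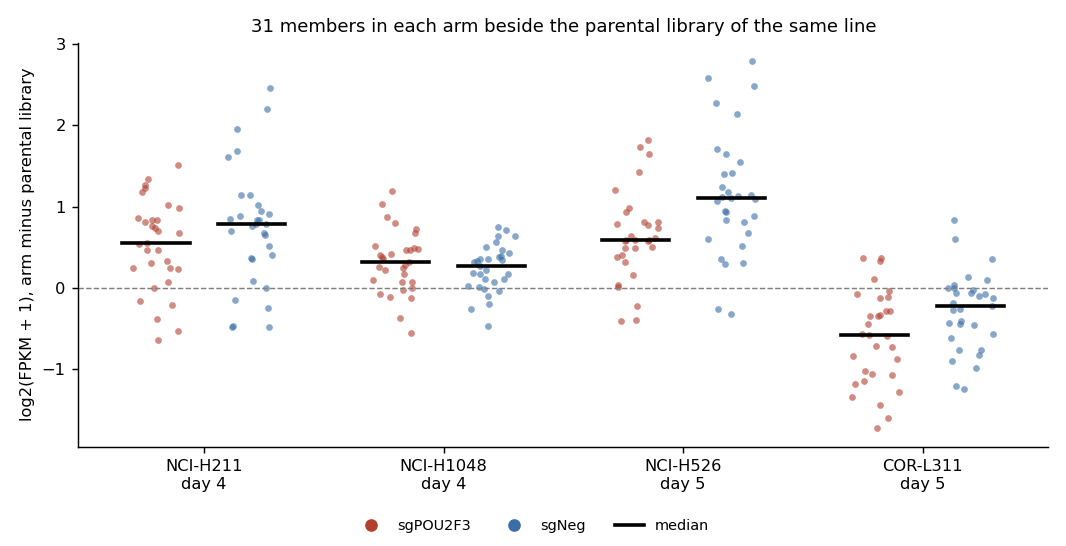
Difference of log2(FPKM + 1) between each arm and the parental library of the same line, 1 point per member, with the median as a black bar, sgPOU2F3 left of sgNeg. The medians in NCI-H526 are 0.59 for sgPOU2F3 and 1.10 for sgNeg, and in COR-L311 -0.58 for sgPOU2F3 and -0.22 for sgNeg.

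Genes around the pathway were counted from lists, and none of their members passed the limma test in the knockout comparison. The median of mean ratios was 0.06 over 8 genes listed under SREBP regulation, not all of which act on the factors. It was -0.04 over 10 genes listed under the isoprenoid branch, among them the sterol reductase LBR, and 0.08 over 14 genes of sterol storage and export. It was -0.09 over 20 further genes of fatty acid and glycerolipid metabolism. Against the -0.22 of the members and the -0.02 of all genes, these lists lay near all genes. Those named are the 3 with the smallest p in each list. MBTPS1 and MBTPS2, the proteases that release the SREBP factors, had mean ratios of 0.33 and 0.30, and the cobalamin enzyme MMAB had -0.23. The ratios of MBTPS1 and MBTPS2 were largest in COR-L311, at 0.81 and 0.84. In the other lines they were 0.04 to 0.40 for MBTPS1 and 0.02 to 0.30 for MBTPS2. In the isoprenoid list PDSS1, LBR and ICMT had -0.25, -0.25 and 0.11. In storage and export NPC2 and LIPA, of lysosomal sterol release, had 0.36 and 0.27, and the exporter ABCG1 had -0.77 ± 1.02 (SD, n = 4 lines). ABCG1 rested on NCI-H211, with 2.09 FPKM in sgPOU2F3 and 13.8 FPKM in sgNeg cells. SCD5, a second stearoyl-CoA desaturase, was higher in 4 of 4 lines, by 0.61 ± 0.27 (SD, n = 4 lines; limma adjusted p = 0.38), opposite in sign to SCD in 3 of them. SCD5 had 4.18, 39.8, 5.57 and 30.2 FPKM in sgPOU2F3 cells of NCI-H211, NCI-H1048, NCI-H526 and COR-L311, against 1.59, 29.8, 3.73 and 20.2 FPKM in sgNeg cells. ACSL4, which activates arachidonate, had -0.80 ± 0.91 (SD, n = 4 lines) and 66.2 FPKM in sgPOU2F3 against 278 FPKM in sgNeg cells of NCI-H211, without which its mean ratio was -0.38, and ACSL3 had -0.27.

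Proliferation genes had ratios below 0 as well. The list of 10 had a median mean ratio of -0.55, with 8 genes below 0 in all 4 lines (12.9% of all genes were), and none passed the limma test. By line its median was -0.93 (NCI-H211), -0.19 (NCI-H1048), -0.48 (NCI-H526) and -0.37 (COR-L311). AURKA, a mitotic kinase, had -0.66 ± 0.25 (SD, n = 4 lines; limma adjusted p = 0.31), and BUB1 and CCNA2 had -0.62 and -0.51. The members' medians, as given above, were -0.16 (NCI-H211), 0.07 (NCI-H1048), -0.52 (NCI-H526) and -0.31 (COR-L311). The part of proliferation in the members' values was not tested.

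Before any infection, no member passed the limma test of the 4 knockout lines against the 10 other lines. Of 13226 genes tested, 28 were higher (0.212%) and 5 lower (0.0378%) in the 4 lines, while the members' adjusted p ranged from 0.60 to 1.0. Leaving out 1 line moved these counts to between 12 (without NCI-H526) and 36 higher and between 3 and 18 (without DMS114) lower, with 0 members past the threshold each time. No member had an unadjusted p under 0.05, which 1146 genes did. No member had groups that did not overlap, against 0.650% of all genes. FADS1, which makes arachidonate, had the smallest p, with 22.3 to 106 FPKM (median 53.8) in the 4 lines and 40.7 to 178 FPKM (median 91.5) in the others. Its difference was -0.89 on the log2 scale with an SE of 0.44 (unadjusted p = 0.060, limma adjusted p = 0.60, n = 4 and 10 lines). NCI-H211 and NCI-H1048, at 22.3 and 22.4 FPKM, were the lines below the range of the other 10. ELOVL6 was 0.97 higher, SREBF1 0.84 higher, FASN 0.59 higher and DHCR7 0.64 higher in the 4 lines, with SE of 0.58, 0.62, 0.43 and 0.43, and the difference of EBP was -0.47. Single lines weighed on these values: without COR-L311 the difference was 0.30 for FASN and 0.32 for DHCR7, and FADS1 came to -0.55 without NCI-H211 and also without NCI-H1048. DHCR7 came to 0.96 without NCI-H526.

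Levels of several members varied widely between lines. STARD4 spanned 42.7-fold over the 14 lines, with 2.33, 5.13, 6.14 and 26.7 FPKM in the 4 knockout lines and 0.962 FPKM (DMS114) to 41.0 FPKM (NCI-H69), median 13.0, in the others. INSIG1 spanned 23.0-fold, with 6.89 FPKM in NCI-H211, 24.8 in NCI-H526, 61.0 in NCI-H1048 and 80.2 in COR-L311. In the other 10 lines INSIG1 had 22.2 FPKM (NCI-H510) to 159 FPKM (DMS79), median 45.1. MSMO1 spanned 14.4-fold, SREBF1 12.7-fold and SCD 10.7-fold, while EBP spanned 3.07-fold. NCI-H211 had the lowest level of the 14 lines for HMGCS1, PMVK, FDPS, HSD17B7, SREBF1, SREBF2, INSIG1, SCD, FADS1 and FADS2. It had the highest for SQLE, and from the lowest of 14 it ranked 12 for NSDHL and DHCR7 and 11 for FASN. Its medians lay near the 14-line median on the log2 scale, at -0.12 for the 18 sterol path enzymes and -0.01 for the 7 fatty acid genes. NCI-H446 had the highest level for 11 of the 18 sterol path enzymes, and its median for them lay 1.21 above the 14-line median on the log2 scale. DMS79 (0.78) and COR-L311 (0.60) came next, and NCI-H524 (-0.63) and NCI-H526 (-0.49) were lowest. For the fatty acid genes the order differed, with NCI-H82 (0.97) and COR-L311 (0.90) highest and NCI-H128 lowest at -0.67. These values are 1 library each and carry no error. Shares of all genes highest or lowest in each line are not given here, so a trait of these genes and a trait of the whole column cannot be told apart. Total FPKM ranged from 374804 (DMS79) to 505338 (NCI-H889) over the parental columns, with 481862 in NCI-H446.

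**Figure D5:**
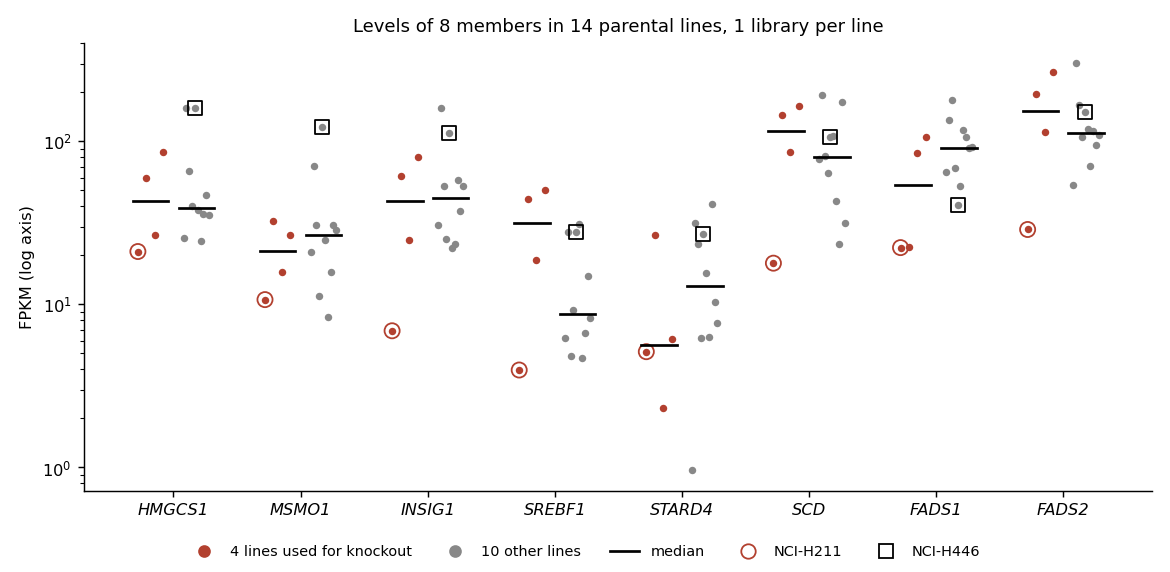
FPKM on a log axis of 8 members in the 4 lines used for knockout (left points) and the 10 other lines (right points), 1 library per line, with medians as bars, NCI-H211 circled and NCI-H446 boxed. NCI-H211 is lowest of the 14 lines for HMGCS1, INSIG1, SREBF1, SCD, FADS1 and FADS2, and the groups overlap in all 8 members. Over the 18 sterol path enzymes its median lay -0.12 from the 14-line median on the log2 scale.

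The sterol path enzymes varied together across the 14 parental lines. Spearman's rho had a median of 0.39 over the 153 pairs of these 18 genes, of which 137 were positive, and 0.21 over the 21 pairs of fatty acid genes. Between the 2 groups the median was 0.22, and over all pairs of genes tested 0.00. INSIG1 had a rho of 0.82 with HMGCS1, 0.79 with FDFT1 and 0.77 with FADS2. SREBF1 had 0.79 with SCD and 0.73 with FADS2, and 0.11 with SQLE. SREBF2 had 0.71 with HMGCS1 and 0.03 with SQLE. Over the 18 sterol path enzymes, rho ranged from 0.13 to 0.82 for INSIG1 (median 0.55) and from -0.31 to 0.67 for SREBF1 (median 0.39). It ranged from 0.03 to 0.71 for SREBF2 (median 0.44), -0.50 to 0.29 for SCAP (median 0.02) and -0.31 to 0.62 for INSIG2 (median 0.22). These values describe 14 libraries that share depth and medium differences, and carry no p. EBP followed the other enzymes least closely, with a median rho of 0.10. Of the listed companion genes, ELOVL5, an elongase of polyunsaturated fatty acids, had groups that did not overlap, with 34.1 to 43.5 FPKM in the 4 lines and 51.7 to 174 FPKM in the others (limma adjusted p = 0.20). TECR, a reductase of fatty acid elongation, differed by -0.85 (limma adjusted p = 0.40), and ACSL4 by 1.03 (limma adjusted p = 0.60). The differences of MBTPS2, MBTPS1 and TMEM97 were -0.73, -0.47 and -0.47, and those of LBR, PDSS1 and NUS1 were 0.73, 0.58 and 0.46. SOAT1, which esterifies cholesterol, OSBP and NPC1 differed by 0.79, 0.50 and -0.49. The proliferation list differed little before infection, with a median of -0.01, and its 3 genes with the smallest p, CCNB1, PLK1 and AURKA, had differences of -0.44, -0.31 and 0.20.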

How the data were processed

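Libraries of polyA RNA from 12 knockout and 14 parental samples were deposited as 5 tables of FPKM. Per the submitters' processing notes, TopHat2, Cufflinks, Cuffdiff and the build hg19 were used, with versions, annotation and scaling across columns not given in the sources used here. The authors combined both guides of a line in 1 column, by steps not stated in the files, so fits on single guides could not be run and the line is the unit of replication. Depth was inferred from the FPKM worth of 1 fragment, with GENCODE transcript lengths on GRCh38, another build, and limits low values only.

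Values were taken as log2(FPKM + 1), for genes with 1 FPKM or more in 4 or more columns. limma 3.58.1 (R 4.3.3), with its variance trend, was fitted with line and arm as terms (3 residual degrees of freedom), the day 5 lines against the day 4 lines on the 4 ratios (2 degrees of freedom), and 4 against 10 parental lines. P-values were adjusted by Benjamini-Hochberg over all genes tested, at a threshold of 0.05, and measure the spread between lines. Scripts were tested on simulated data. Alternatives were a pseudocount of 0.1, no filter, a filter at 5, columns centred on their median, no trend, no line term (the replicate block), and leaving out each line. The members, gene lists and tests were chosen with earlier results of these data known. Values in every column are given for the regulators, members with an unadjusted p under 0.05, members at a log2 ratio of 1 in any line, members below 0 in all 4 lines by a mean of at least 0.3, and LSS, chosen after its values were seen. Promoter sequences are from RefSeq.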

Additional observations from a re-analysis of the deposited data

Results flagged for a closer look

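Values of 1 line far from the others of its group were looked for in 96 groups of 4 or 10 lines, of which chance marks about 5%, and 2 were found. EBP in the parental library of COR-L311 stood at 5.71 on the log2(FPKM + 1) scale, against 6.13 to 6.21 in the other 3 knockout lines. ABCA1 in the parental library of NCI-H526 stood at 1.52, against 0.03 to 0.08 in the other 3, and this is the member that failed the filter on low values.

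The effect of sgPOU2F3 against sgNeg had opposite signs in the day 5 and day 4 lines for 6 of 31 members. For CYP51A1, NSDHL and SCAP it lay near 0 in some lines. The difference, day 5 lines minus day 4 lines, was -1.10 for HMGCS1, -0.72 for MVD, -0.49 for CYP51A1, -0.74 for NSDHL, -1.14 for DHCR7 and -0.28 for SCAP. None passed the limma test of that difference over all genes with 4 lines. Without NCI-H1048, DHCR7 (-1.21) and HMGCS1 (-1.29) did, at adjusted p = 0.017 and 0.027.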

How the results depend on the processing

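The count of members past the limma threshold stayed at 0 in the knockout and parental comparisons under every alternative run. The members' median knockout ratio ranged from -0.31 to -0.14. The 2 genes called higher in the knockout comparison became 0 with a pseudocount of 0.1, without the filter, without the trend or with no replicate block, which also called 0 members, and 0 to 1 when 1 line was left out. With a line left out, the day comparison called 0 to 294 genes higher, 0 to 302 lower and 0 to 3 members. Its highest counts came without NCI-H1048 and rest on a lone day 4 line assumed to vary like the others. Without NCI-H211 it called 20 genes higher and 18 lower. Genes lower in the 4 parental lines numbered 13 with a pseudocount of 0.1 and 3 without the filter. With 1 line left out they numbered 3 (without COR-L311, NCI-H446 or NCI-H889) to 18 (without DMS114), with 9 without NCI-H526 and 8 without DMS79 or NCI-H1048. Genes higher there numbered 12 (without NCI-H526) to 36, with 14 without COR-L311. Members below 0 in every line numbered 4 with centred columns and 6 to 16 when 1 line was left out. The 16 came without NCI-H1048, where 21.1% of all genes were below 0, and shares of all genes for the other settings are not given here.

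With the parental library in place of sgNeg, the members' median ratio turned to 0.55 for NCI-H211 and 0.59 for NCI-H526, and was 0.31 for NCI-H1048 and -0.58 for COR-L311. Members at or below -0.5 then numbered 2 in NCI-H211 (18.5% of all genes), 0 in NCI-H526 (12.3%), 1 in NCI-H1048 (12.8%) and 17 in COR-L311 (17.4%). Members at or above 0.5 numbered 17 (22.5% of all genes), 20 (16.9%), 7 (20.6%) and 0 (19.1%). At a size of 1 against sgNeg, 2 members were lower in NCI-H211 (4.26% of all genes), 0 in NCI-H1048 (0.783%), 3 in NCI-H526 (0.388%) and 1 in COR-L311 (1.92%), and 0 were higher in any line. At a size of 1 the members' shares in NCI-H211 and COR-L311 thus rest on 2 genes and 1 gene, against 8 and 11 at a size of 0.5. With a pseudocount of 0.1, 1 member was higher in NCI-H211 and 2 in NCI-H1048, and with centred columns 1 was in NCI-H1048. Both of these alternatives left the other counts within lines inside 1.5 times. The parental substitution and the size of 1 were chosen after seeing the data, and the cause of these changes was not tested. Fits with guides as replicates were not run, since the columns combine the guides. No value has a spread within a line, the sgNeg columns are the shallower ones, and 4 lines limit every test.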
